A study of Lactuca sativa with 53 samples.

Results

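Water was withheld for 48 h from plants of the lettuce cultivar Salinas (Lactuca sativa), and the aerial tissue of such plants, in 3 libraries, was compared with that of unstressed plants, in 3 control libraries taken at 0 h. These 6 RNA-seq libraries belong to 30 from Salinas, in 10 groups of 3, and to 53 in the whole series. They were chosen by their labels (drought for 48 h, control at 0 h). Every gene with a value of 0.5 or more in at least 2 of the 30 Salinas libraries entered the test, 23231 of the 23292 genes listed. Some genes tested thus had few or no reads in the 6 libraries compared. Treatments started on potted plants of 18 days that had grown at 20 °C with 16 h of light a day. For the drought group the pots were drained and blotted before watering stopped. The control was sampled at 0 h only. Both groups were taken at the same clock time, but the drought plants were 48 h older, and the study's methods give a lower light level during the treatments than during growth, so that age, light and lack of water cannot be told apart in this comparison. In whole tissue, fewer cells of a type and less RNA per cell also cannot be told apart.

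The AP2/ERF family is described here in depth, because its members are the genes of the table that carry names. These plant transcription factors bind DNA through the AP2 domain. The DREB subfamily (subgroups I to IV) is known for binding the dehydration-responsive element in promoters of genes induced by drought, salt and cold, and its CBF members for their part in cold and dehydration responses. The ERF subfamily (subgroups V to X) is known for ethylene, jasmonate and defence responses, and holds both activators and repressors. AP2 proteins with a double domain act mostly in organ growth and seed development, and RAV proteins carry a second, B3-type domain. Of the genes that the study's family table names, 157 were listed among the Salinas values and 153 passed the filter. LsERF069 and LsERF142 passed it with no read in the 6 libraries compared.

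Read totals on genes were 19144717 to 23471398 in the controls and 24206956 to 29521313 at 48 h of drought. Values are given in scaled CPM, reads of a gene per 1000000 of a scaled library size, in which a single read was worth 0.0300 to 0.0448 in these 6 libraries. A log2 fold change is a difference of log2(scaled CPM + 0.5), which understates the change of genes with low values. A gene was called upregulated or downregulated at an adjusted p of 0.01 or less by limma, with a log2 fold change of 1 or more in size. The drought libraries differed more among themselves than the controls did. The chi-square per gene between replicate libraries was 3.60 to 5.78 for the control pairs and 14.6 to 21.7 for the drought pairs, and the correlation of log2 values across genes was 0.993 to 0.994 against 0.983 to 0.989. The leaf identity of the tissue was not checked with marker genes, because no table used here pairs the other gene IDs with products.

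At 48 h without water, 439 genes were upregulated and 309 downregulated against the control. These were 1.89% and 1.33% of the genes tested, while over all genes the log2 difference had a median of 0.01. The rises were larger than the falls, with a median of 1.43 among the upregulated genes and -1.25 among the downregulated. On the log2 scale 100 genes rose by 2 or more and 32 fell that far. The size of a fall, unlike that of a rise, is capped for genes with low control values, because 0.5 is added to each value. Smaller differences were common. At the adjusted p alone, 1721 genes were higher and 1519 lower, together 13.9% of those tested (7.41% and 6.54%). At an unadjusted p under 0.05, 19.2% of all genes were higher and 17.4% lower. All 3 drought libraries lay above all 3 controls in 22.7% of genes and below them in 21.8%. They did not overlap in 432 of the 439 upregulated genes and in 308 of the 309 downregulated ones.

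**Figure D1:**
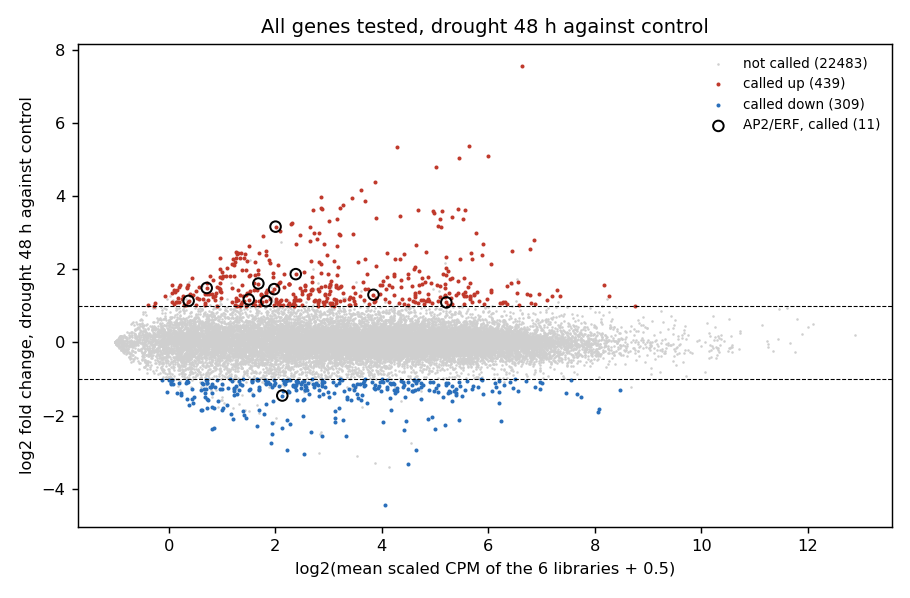
Log2 fold change at 48 h of drought against the control (y axis) over log2 of the mean scaled CPM of the 6 libraries plus 0.5 (x axis), 1 point per gene tested. Red points are the 439 upregulated and blue points the 309 downregulated genes, open circles the 11 called AP2/ERF genes, and dashed lines mark a log2 fold change of 1 in either direction. The largest rise reaches 7.55 and the largest fall -4.44.

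Rises were more frequent among genes with a low value in the control. Of the 2305 genes with a control mean under 1 scaled CPM, 134 were upregulated and 7 downregulated, or 5.81% and 0.304%. Because 0.5 is added to each value, a gene with control values under 0.5 scaled CPM cannot reach a log2 fall of 1. This holds even with no read under drought. The low number of falls in this range is thus partly set by the method, and cannot show that rises outweigh falls there. Between 1 and 10 scaled CPM, 201 of 7748 were upregulated and 152 downregulated, and between 10 and 100, 101 of 11566 were upregulated and 130 downregulated. Of the 1612 genes at 100 or more, 3 were upregulated and 20 downregulated. In 20 upregulated genes no control library had more than 3 reads. The largest rise was that of Lsat_1_v5_gn_2_78000.1, which had 3, 13 and 1 reads in the controls and 1364, 3442 and 12700 in the drought libraries, a log2 difference of 7.55 ± 0.89 (SE; adjusted p = 2.38e-06 in the limma test). The drought libraries of this gene ranged from 47.6 to 443 scaled CPM. Lsat_1_v5_gn_8_25740.1 stood at 0.314, 0.649 and 1.22 scaled CPM in the controls and at 5.62, 97.1 and 192 under drought, a log2 fold change of 5.37 ± 0.74 (adjusted p = 1.85e-05). Among the falls, Lsat_1_v5_gn_2_72121.2 was the more even across replicates, with 42.8, 37.7 and 40.6 scaled CPM in the controls and 3.0, 6.72 and 2.27 under drought, a log2 fold change of -3.31 ± 0.33 (adjusted p = 3.81e-07). Lsat_1_v5_gn_1_53600.2 went from 49.4, 17.2 and 24.5 scaled CPM to 0.174, 0.0300 and 5.59 (log2 fold change -4.44 ± 1.01, adjusted p = 0.00225). For these IDs no gene name is given in the sources used here.

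The drought libraries were not equally far from the control. Drought replicate 1 was the lowest of the 3 drought libraries in 367 of the 439 upregulated genes, replicate 2 in 32 and replicate 3 in 40. The median log2 difference of the upregulated genes from the control mean was 1.03 in replicate 1, 1.59 in replicate 2 and 1.71 in replicate 3. Among the 309 downregulated genes the corresponding medians were -1.33, -1.27 and -1.18, so that replicate 1 stood nearer to the control for the rises and not for the falls. On the first principal component of the 6 libraries, which held 65.7% of the variance, the controls lay at -38.9, -28.9 and -36.9 and the drought libraries at 23.7, 41.1 and 39.8. Leaving out replicate 1 of the drought group gave 539 up and 261 down, and leaving out replicate 3 gave 335 and 331.

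**Figure D2:**
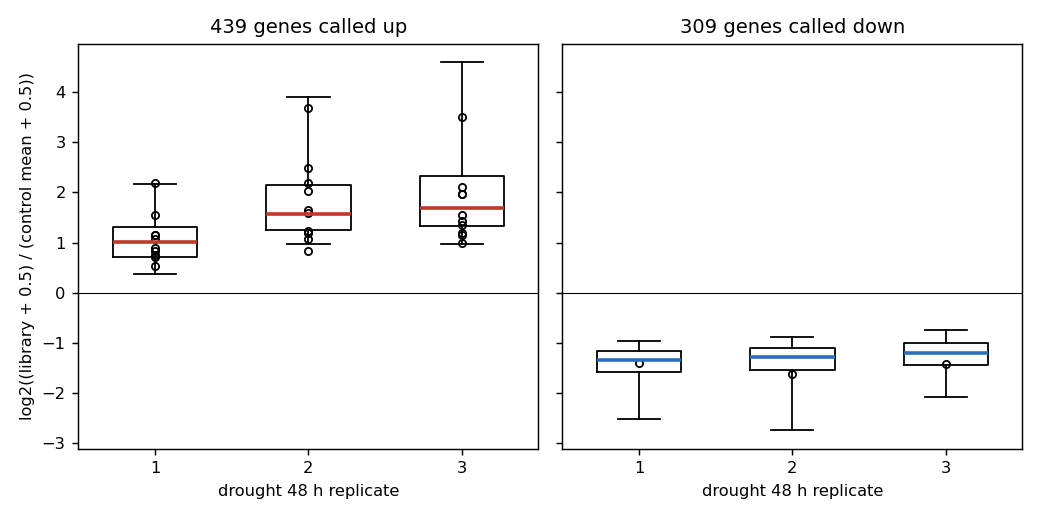
Log2 ratio of each drought 48 h library to the control mean (both plus 0.5), for the 439 upregulated (left) and 309 downregulated (right) genes. Boxes span the quartiles with the median as a coloured line, whiskers run from the 5th to the 95th percentile, and open circles are the called AP2/ERF genes. Among upregulated genes the median of replicate 1, 1.03, lies below those of replicates 2 and 3, 1.59 and 1.71.

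Of the 153 AP2/ERF genes tested, 10 were upregulated (6.54%) and 1 was downregulated (0.654%), beside 1.89% and 1.33% of all genes. The family's median log2 difference was 0.10 beside 0.01 for all genes. By subfamily, 7 of 46 DREB genes were upregulated (15.2%), 2 of 80 ERF genes were upregulated and 1 downregulated, and 1 of the 27 AP2, RAV and Soloist genes was upregulated. Many AP2/ERF genes have low values, the range in which rises were frequent over all genes. Of the 44 family members with a control mean under 1 scaled CPM, 20 were DREB genes. Among these 44 members 4 were upregulated, all of them DREB genes. Members with control values under 0.5 scaled CPM could not be called downregulated, because 0.5 is added to each value. The split between rises and falls in the family and among DREB genes is thus partly set by the method. Of the 63 members between 1 and 10, 5 were upregulated, where 2.59% of all genes were. In all 11 called genes the drought libraries lay on one side of the controls without overlap. Over all genes this held for 432 of the 439 upregulated and 308 of the 309 downregulated, so it adds little to the call.

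**Figure D3:**
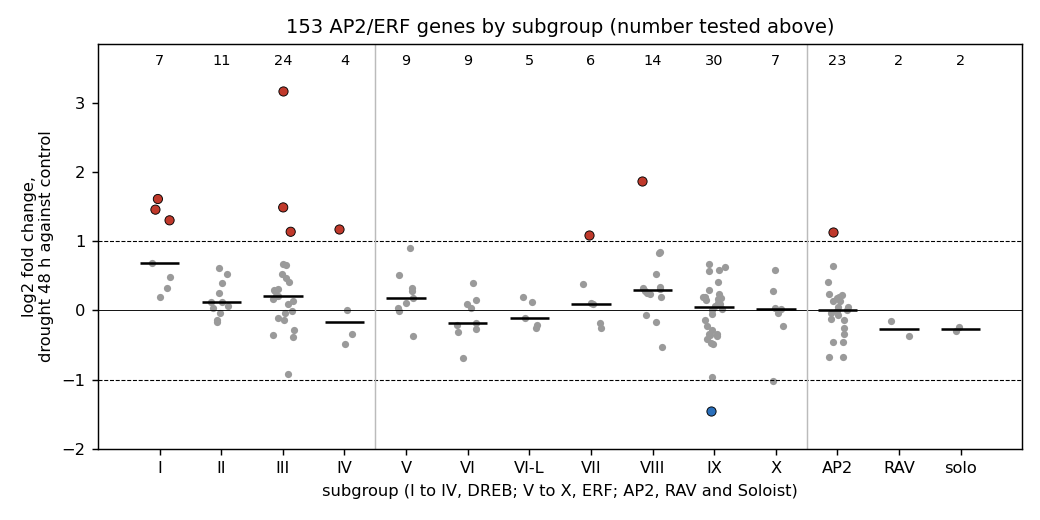
Log2 fold change at 48 h of drought against the control for the 153 AP2/ERF genes tested (1 point per gene), by subgroup, with the number tested above each column. Black bars are subgroup medians, red and blue points are called genes, and dashed lines mark a log2 fold change of 1 in either direction. Subgroup I has the highest median, 0.68, and subgroup III holds the largest rise, 3.16.

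The largest change in the family was that of LsERF056, also called LsCBF3, a DREB gene of subgroup III at linkage group 9, 62232796 to 62233491, of the version 8 genome. Its best match in Arabidopsis is AT5G51990 (CBF4), a CBF gene known there for induction by drought and abscisic acid. It stood at 0.0896, 0.468 and 0.211 scaled CPM in the controls, from 2, 13 and 5 reads, and at 2.97, 9.26 and 8.13 under drought, from 85, 309 and 233 reads. The lowest drought library was thus above the highest control, though the drought libraries spanned a wide range. The mean rose from 0.256 ± 0.193 to 6.79 ± 3.36 (SD, n = 3). The log2 fold change was 3.16 ± 0.32 (SE from the fit of all 30 libraries, 3 against 3 compared, limma, adjusted p = 4.12e-07). It was upregulated with each library left out in turn, between 2.89 and 3.63.

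LsERF056 is one of 14 LsCBF genes, which lie mostly as neighbouring copies on linkage group 9. Of these, 10 were listed and 7 tested. Over all genes 1.89% were upregulated, and 5.81% of those with a control mean under 1 scaled CPM. Of the 7 LsCBF genes tested, 2 were upregulated (28.6%). The filter that left these 7 also used the drought 48 h libraries, so this share is not independent of high values there. The second was LsERF062 (LsCBF11; linkage group 9, 63158427 to 63159059), whose best Arabidopsis match is again CBF4. It was the most even of the called genes, with 0.314, 0.324 and 0.295 scaled CPM in the controls and 1.29, 1.20 and 1.36 under drought. These are 7 to 9 reads against 37 to 40, a log2 fold change of 1.14 ± 0.20 (limma, adjusted p = 0.000196). With a pseudocount of 2 in place of 0.5 it was 0.51, under the threshold. LsERF061 (LsCBF12), a tandem partner of LsERF062, lay above all controls in each drought library, at 0.488, 0.780 and 0.524 against 0.269, 0.0360 and 0.295. Its log2 fold change of 0.66 ± 0.19 was not past the thresholds (limma, adjusted p = 0.0129).

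The other LsCBF genes gave smaller values or too few reads. LsERF057 (LsCBF4) had no read in the 3 controls and 2, 17 and 4 reads under drought, a mean at least 1.95-fold higher than 3 reads in each control library would give (limma, adjusted p = 0.105). LsERF060 (LsCBF7), a match of CBF2, went from 2.73, 4.11 and 4.09 scaled CPM to 3.84, 5.04 and 3.53, with overlapping groups and a log2 difference of 0.17 (95% interval -0.32 to 0.65). LsERF028 (LsCBF1) and LsERF055 (LsCBF14), which the study pairs with LsERF062 by segmental duplication, differed by -0.11 (-0.51 to 0.28) and -0.36 (-0.78 to 0.07). LsERF059, LsERF063 and LsERF064 never had more than 10, 5 and 7 reads in any Salinas library. Since these copies are alike and how reads shared between copies were counted is not given in the sources used here, the values of single LsCBF genes are uncertain.

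In subgroup III the third upregulated gene was LsERF046 (linkage group 6, 17506994 to 17507545; best match AT1G71450). Its values were 0.403, 0.360 and 0.253 scaled CPM in the controls and 1.26, 2.94 and 1.64 under drought, a log2 fold change of 1.49 ± 0.26 (limma, adjusted p = 0.000175). All drought libraries were more than 3 times the highest control, but these are 36, 98 and 47 reads, and with a pseudocount of 2 the log2 difference was 0.73. LsERF035, another member of the subgroup, had lower values in all drought libraries, at 0.174, 0.240 and 0.209 against 0.717, 0.829 and 0.970. Its log2 difference of -0.92 ± 0.20 was just short of the fold (limma, adjusted p = 0.00187).

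Subgroup I had the highest share of upregulated members, 3 of 7 (42.9%, beside 1.89% of all genes), and its median log2 fold change was 0.68. All 7 had a positive log2 difference, the lowest being 0.19. LsERF009 (linkage group 8, 211844511 to 211845674; best match AT4G28140) stood at 0.986, 0.937 and 0.928 scaled CPM in the controls and at 1.6, 6.12 and 5.73 under drought. Replicate 1 was therefore much nearer to the controls than the other two. The log2 fold change was 1.61 ± 0.29 (limma, adjusted p = 0.000302), and the call was lost in a fit of the 6 libraries alone (adjusted p = 0.0190; 2.6e-07 to 0.0190 over all alternatives).

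LsERF005 (linkage group 6, 13975745 to 13978362; best match AT1G64380) rose from 1.21, 1.55 and 1.81 scaled CPM to 2.83, 5.82 and 7.47, a log2 fold change of 1.46 ± 0.28 (limma, adjusted p = 0.000510). LsERF004 (linkage group 6, 169373016 to 169374686) matches AT1G78080 (RAP2.4), a regulator known in Arabidopsis from light and dehydration responses. It stood at 6.86, 7.64 and 8.35 scaled CPM in the controls and at 13.1, 24.1 and 23.3 under drought, a log2 fold change of 1.3 ± 0.20 (adjusted p = 6.88e-05). Both were upregulated with any library left out. LsERF010, a second match of RAP2.4, differed by less but evenly, from 156, 156 and 140 to 191, 182 and 193, a log2 difference of 0.33 ± 0.07 that passed the adjusted p (0.000907) and not the fold.

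In subgroup IV, the DREB2 group, 1 of 4 genes was upregulated (25%, beside 1.89% of all genes). LsERF073 (linkage group 8, 15916647 to 15917453; best match AT2G40350, DREB2H) went from 0.941, 1.08 and 1.73 scaled CPM to 2.62, 3.48 and 4.19, a log2 fold change of 1.17 ± 0.26 (limma, adjusted p = 0.00186). It was not called without control replicate 1 (1.05) or without drought replicate 3 (1.03). LsERF077 (LsDREB2A) had 1.57, 2.38 and 2.61 scaled CPM in the controls and 1.54, 1.53 and 1.12 under drought. Its drought values lay below all the controls, but the fit did not separate the groups (log2 difference -0.49, 95% interval -1.36 to 0.37). That interval also takes in the spread within other groups, such as salt at 48 h, where LsERF077 stood at 156, 235 and 167. In subgroup II no gene of 11 was called by limma or by edgeR. There 3 members were higher and none lower at an unadjusted p under 0.05, beside 19.2% and 17.4% of all genes. The segmental pair LsERF011 and LsERF014 passed the adjusted p with log2 differences of 0.61 ± 0.15 and 0.53 ± 0.12.

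**Figure D4:**
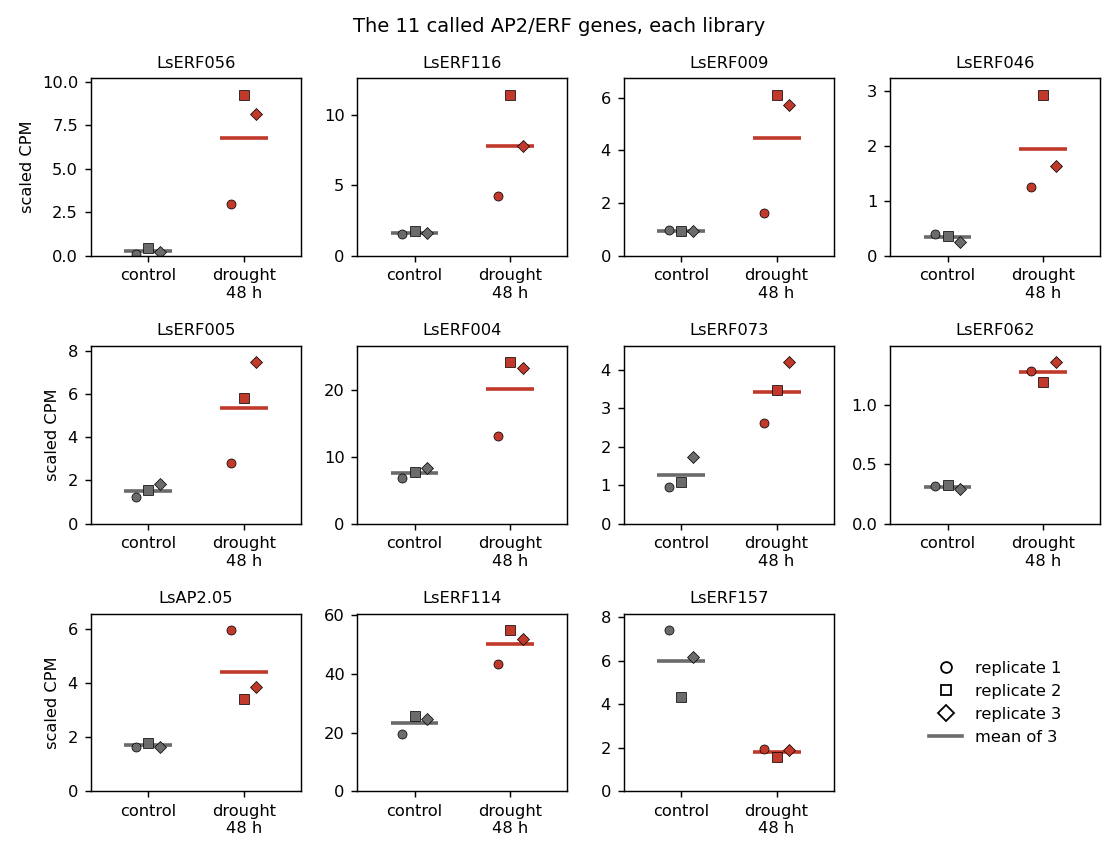
Scaled CPM (linear y axis from 0, its own scale in each panel) of the 11 called AP2/ERF genes in the 3 control (grey) and 3 drought 48 h (red) libraries, with bars for the means and a marker shape for each replicate number. The groups do not overlap in any panel, as in 432 of the 439 upregulated and 308 of the 309 downregulated genes of the whole test. Drought replicate 1 is the lowest drought library in 8 of the 10 upregulated genes and the highest in LsAP2.05.

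Among the ERF subfamily the largest rise was that of LsERF116 in subgroup VIII (linkage group 1, 198393259 to 198393834). Its best match, AT3G15210 (ERF4), is a repressor with an EAR motif in Arabidopsis. LsERF116 stood at 1.57, 1.73 and 1.6 scaled CPM in the controls and at 4.22, 11.5 and 7.82 under drought. The controls were close together and the drought libraries spread widely, for a log2 fold change of 1.87 ± 0.30 (limma, adjusted p = 8.54e-05). Other members of the subgroup were higher by less. LsERF119 went from 5.38, 4.76 and 4.51 to 7.15, 10.4 and 10.2, and LsERF123 from 2.29, 3.28 and 2.45 to 3.63, 6.0 and 5.90. Both match ERF4 and passed the adjusted p but not the fold (log2 differences 0.84 ± 0.23 and 0.82 ± 0.21). In 9 of the 14 genes of subgroup VIII all drought libraries lay above all controls, beside 22.7% of all genes.

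LsERF114 of subgroup VII (linkage group 6, 128805175 to 128807750) matches AT3G16770 (RAP2.3), of the ERF group known in Arabidopsis from low-oxygen and ethylene responses. Its values were 19.5, 25.7 and 24.5 scaled CPM in the controls and 43.3, 54.9 and 51.9 under drought, from 435 to 1831 reads. The log2 fold change was 1.09 ± 0.16 (limma, adjusted p = 4.06e-05), and 0.98 without control replicate 1. LsERF085 of subgroup V matches AT1G15360 (SHN1), known from cuticular wax formation. At 1.43, 1.15 and 1.22 against 2.65, 3.42 and 2.41 it was higher in every drought library, with a log2 difference of 0.90 ± 0.24 (adjusted p = 0.00712), just under the fold.

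The only downregulated AP2/ERF gene was LsERF157 of subgroup IX (linkage group 5, 328229527 to 328230198), which matches AT3G23240 (ERF1), an Arabidopsis factor of ethylene and jasmonate responses. It stood at 7.40, 4.32 and 6.16 scaled CPM in the controls and at 1.95, 1.59 and 1.92 under drought. Here the controls varied and the drought libraries were close together. The log2 fold change was -1.45 ± 0.32 (limma, adjusted p = 0.00191), but the gene was not called without control replicate 1 (-1.29), control replicate 3 (-1.41) or drought replicate 2 (-1.38). In the same subgroup LsERF136, a match of AT5G47220 (ERF2), went from 62.5, 62.6 and 62.6 to 36.2, 37.0 and 24.0, a log2 difference of -0.97 ± 0.16 (adjusted p = 0.00011) just short of the fold. LsERF184 of subgroup X had 0.807, 0.937 and 1.01 scaled CPM in the controls and 0.279, 0.270 and 0.0698 under drought, past the fold at -1.02 ± 0.33 and not past the adjusted p (0.0261, limma). In a fit of the 6 libraries alone LsERF184 was called downregulated.

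In the AP2 subfamily LsAP2.05 was upregulated (linkage group 2, 134852110 to 134858334). It matches AT3G54320 (WRI1), known in Arabidopsis as a regulator of fatty acid synthesis in seeds. Its values were 1.66, 1.80 and 1.64 scaled CPM in the controls and 5.97, 3.42 and 3.87 under drought, a log2 fold change of 1.13 ± 0.30 (limma, adjusted p = 0.00715). This was the least secure call, since it held in only 1 of the 6 fits with a library left out, that without drought replicate 2, where it was 1.27. LsAP2.21, also a match of WRI1, had 0.0698 to 0.279 scaled CPM in all 6 libraries, with a log2 difference of -0.03 (95% interval -0.45 to 0.39). LsAP2.01 and LsAP2.27, which match members of the AINTEGUMENTA group of growth regulators, had log2 differences of -0.68 ± 0.18 and -0.68 ± 0.16 and passed the adjusted p alone. LsAP2.13 and LsAP2.14 had overlapping groups, with differences of 0.14 and 0.01.

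In all, 9 further AP2/ERF genes were higher and 5 lower at the adjusted p without reaching the fold, between -0.97 and 0.90. At an unadjusted p under 0.05, 39 members were higher and 13 lower, beside 19.2% and 17.4% of all genes. On the recovered reads edgeR called 10 up and 2 down, the second downregulated gene being LsERF035.

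The earlier drought samples give the values before 48 h. These comparisons, and those with salt and heat below, use the same drought 48 h libraries as the comparison with the control. A gene called for high values in those libraries is therefore more likely to stand higher at 48 h here too. The differences are not independent of the first call. Between 24 h and 48 h, which share the clock time, 175 genes were higher at 48 h (0.753% of those tested) and 9 lower (0.0387%). AP2/ERF genes made up 5 of the 175. LsERF056 stood at 0.884, 0.240 and 0.125 scaled CPM at 24 h, which overlaps the controls, so that its 48 h level was higher by 2.94 ± 0.32 on the log2 scale (limma, adjusted p = 7.08e-06). LsERF004 had 6.47, 6.68 and 7.05 at 24 h and was higher at 48 h by 1.47 ± 0.20 (adjusted p = 0.000119). These 2 calls held with any library left out. LsERF116 (1.5), LsERF009 (1.33) and LsERF046 (1.33) were also called, and each of these calls was lost without drought 48 h replicate 2 or replicate 3. Leaving out single libraries moved the 175 to 53 (replicate 2 of 48 h), 69 (replicate 3 of 48 h), 87 (replicate 2 of 24 h) or 321 (replicate 1 of 48 h). In a fit of these 6 libraries alone limma called 0 genes in either direction, with 2263 higher and 2111 lower at an unadjusted p under 0.05, while edgeR called 214 and 12 in the full set. The 9 became 4 when replicate 2 of 48 h was left out and 19 when replicate 3 of 24 h was.

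The other 6 called genes were not called between 24 h and 48 h. LsERF005 had 3.57, 1.28 and 1.63 scaled CPM at 24 h, overlapping both the controls and the 48 h libraries, and its 48 h level was above that at 24 h by 1.15 (adjusted p = 0.0157 by limma). It was called when replicate 1 of either time point was left out. LsERF073 had 1.63, 1.52 and 1.41 at 24 h, within the range of the controls, and its 48 h level was above that by 0.94 (adjusted p = 0.0339). LsERF114 had 37.9, 43.1 and 63.1 scaled CPM at 24 h, and its 48 h level differed from that by 0.09 (95% interval -0.25 to 0.42). LsERF157 had 4.56, 1.84 and 1.66 at 24 h and differed by -0.35 (-1.01 to 0.32). LsERF062 had 0.530, 1.20 and 0.501 at 24 h, between its control and 48 h levels, with a difference of 0.56 (0.16 to 0.97; adjusted p = 0.10). LsAP2.05, at 4.03, 2.48 and 2.16, differed by 0.54 (-0.07 to 1.16).

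Against 5 h of drought, a sample of another time of day, 465 genes were higher at 48 h and 278 lower (2% and 1.2%), among them 8 AP2/ERF genes higher and 7 lower. None of the 11 genes called against the control was among the 7. These 11 were called from the same 48 h libraries that this comparison uses. Of the 10 upregulated AP2/ERF genes, 6 were higher at 48 h than at 5 h, LsERF056 by 2.54, LsERF046 by 1.59, LsERF004 by 1.47, LsERF116 by 1.38, LsERF062 by 1.35 and LsAP2.05 by 1.11. The LsAP2.05 call held in 1 of the 6 fits with a library left out (0.89 to 1.25), and that of LsERF116 was lost without drought 48 h replicate 2 (1.07). LsERF005 was at 2.88, 3.59 and 4.40 scaled CPM at 5 h, all above the controls and overlapping the 48 h libraries. Its 48 h level exceeded that at 5 h by 0.44 (95% interval -0.14 to 1.01).

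**Figure D5:**
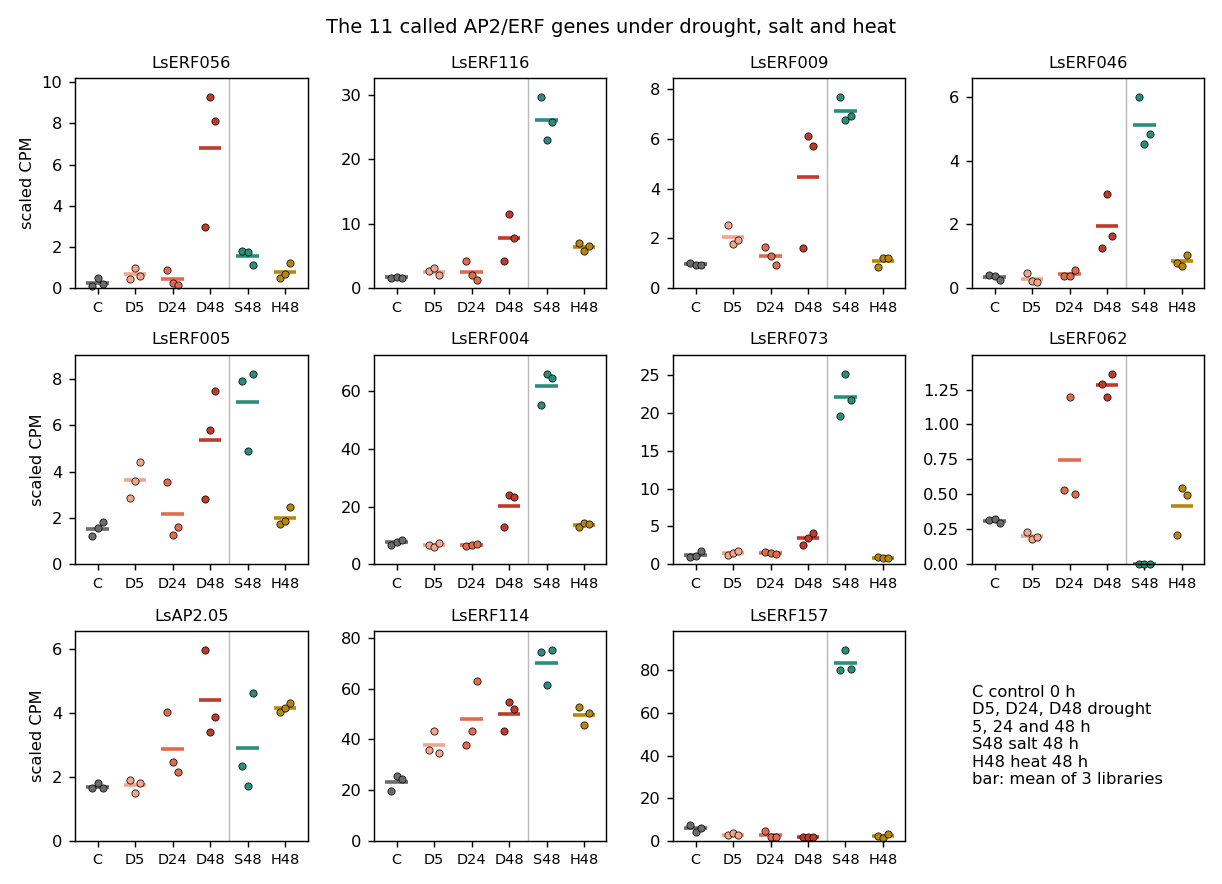
Scaled CPM (linear y axis from 0, its own scale in each panel) of the 11 called AP2/ERF genes in the control at 0 h, at 5, 24 and 48 h of drought and, right of the line, at 48 h of salt and heat. Points are single libraries and bars the means of 3. LsERF056 is highest at 48 h of drought, while LsERF157 reaches 80.0 to 89.3 under salt and 1.59 to 1.95 under drought.

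At the same time point, 48 h, drought was compared directly with 250 mM NaCl and with 34 °C. Against salt, 4927 genes were higher under drought and 4463 lower (21.2% and 19.2%). This split depends on the scale of the salt libraries. With every library scaled to 1000000 reads it was 7378 higher and 3100 lower, and the median of all genes moved from 0.01 to 0.49. Among AP2/ERF genes 39 were higher and 57 lower under drought on the deposited scale. LsERF056 was the higher under drought, where salt gave 1.79, 1.73 and 1.09 scaled CPM (log2 difference 1.72 ± 0.32, adjusted p = 2.63e-05 by limma). LsERF062 had no read in the 3 salt libraries, so that its drought mean was at least 7.78-fold higher than 3 reads in each salt library would give.

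Several genes upregulated at 48 h of drought were higher still under salt. LsERF073 reached 19.5, 25.1 and 21.7 scaled CPM under salt, which put drought lower by -2.54 ± 0.26 on the log2 scale. LsERF116 reached 29.7, 23 and 25.8 under salt (-1.77 ± 0.30 for drought), and LsERF004 reached 55.2, 65.9 and 64.5 (-1.64 ± 0.20). LsERF046 was lower under drought by -1.25 ± 0.26, but by -0.80 with libraries scaled to 1000000 reads, which is under the threshold. The clearest contrast was LsERF157, which fell under drought and stood at 80.0, 89.3 and 80.8 under salt, a log2 difference of -5.18 ± 0.32 (limma, adjusted p = 1.63e-13). LsERF005 and LsERF009 differed from salt by -0.41 (95% interval -0.99 to 0.16) and -0.78 (-1.38 to -0.18; adjusted p = 0.0175), neither past the thresholds. With libraries scaled to 1000000 reads these differences were 0.07 and -0.30, so that the sign for LsERF005 depends on the scale.

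Against heat, 1512 genes were higher under drought and 943 lower (6.51% and 4.06%), with 10 AP2/ERF genes higher and 5 lower. Of the 11 called genes, 4 were higher under drought than under heat. LsERF056 had 0.457, 0.689 and 1.21 scaled CPM under heat (log2 difference 2.41 ± 0.32), LsERF009 had 0.843, 1.20 and 1.21 (1.49 ± 0.29), LsERF073 had 0.914, 0.871 and 0.854 (1.49 ± 0.26) and LsERF005 had 1.72, 1.85 and 2.46 (1.15 ± 0.28). LsERF114, LsERF116, LsAP2.05 and LsERF157 had overlapping ranges in the 2 stresses, with differences of 0.01 (95% interval -0.33 to 0.34), 0.18 (-0.44 to 0.79), 0.04 (-0.57 to 0.65) and -0.14 (-0.80 to 0.53). LsERF062 and LsERF046 differed from heat by 0.98 and 0.83 (limma, adjusted p = 0.000232 and 0.0095), past the adjusted p and not the fold. On the recovered reads edgeR called both. LsERF004 differed by 0.49 (limma, adjusted p = 0.0509). LsERF005 was not called against heat without drought 48 h replicate 3 (0.88), and LsERF056, LsERF009 and LsERF073 were called with any library left out.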

How the data were processed

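Libraries of Salinas aerial tissue (leaf, in the study's methods) were compared, with groups from the sample labels. Per the labels and methods the authors aligned reads to genome version 8 with STAR 2.5.2, counted them per gene with featureCounts and used edgeR. The deposited signal values are CPM of a scaled library size, and the scaling is not given in the sources used here. Whole reads were recovered for 100% of values (tolerance 0.01 read). The test was limma 3.58.1 on log2(value + 0.5), with a trended variance, all 30 libraries in 1 fit and Benjamini-Hochberg adjustment over 23231 genes. The recovered reads were tested with edgeR 4.0.16 (quasi-likelihood, TMM). An exact permutation test of 3 against 3 cannot go below p = 0.1, so none was used. Also tried were other pseudocounts (0.1 and 2), all genes without the filter, median-centred libraries, libraries scaled to 1000000 reads, only the libraries compared, a replicate block and each library left out. The procedure was also run on simulated data in which each gene had the same dispersion in every group. The drought and control libraries differed in spread, so that run cannot show how the procedure performs on them. Values were planned as plain CPM, and the planned test fitted the scaled values.

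AP2/ERF names, subgroups, positions, gene pairs and Arabidopsis matches came from the study's family tables. Named genes were the called AP2/ERF genes, those the study's expression text names, listed duplicates of called genes, and the 2 largest rises and falls by ID. LsERF010, LsERF035, LsERF136, LsERF184, LsERF119, LsERF123, LsERF011, LsERF014, LsERF077, LsAP2.01 and LsAP2.27 were named after their values were seen. The members and lists were chosen with earlier results of these data known. Planned lists by gene product and a leaf marker check were not made, because the gene reference shares 0 IDs with the files. The study's methods give biological replicates grown in randomized blocks, and the number of plants in a library is not given in the sources used here. The cold libraries of other genotypes were not used here. Whether counting used strand is not given in the sources used here. Intervals and read floors cover the spread between these libraries or counting error only.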

Additional observations from a re-analysis of the deposited data

Results flagged for a closer look

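The following differences between 48 h of drought and another condition passed the test of the difference itself (limma, log2 of scaled CPM + 0.5, n = 3 against 3, adjusted p of 0.01 or less and a difference of 1 or more in size) for genes called against the control. Each comparison includes the drought 48 h libraries from which these genes were called, so it is not independent of that call. Drought at 48 h exceeded drought at 24 h by 2.94 in LsERF056, 1.5 in LsERF116, 1.47 in LsERF004, 1.33 in LsERF009 and 1.33 in LsERF046.

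Against salt at 48 h, drought was higher by 1.72 in LsERF056 and by a fitted 1.83 in LsERF062, a value that depends on the pseudocount because salt had no read of that gene. It was lower in LsERF116 (-1.77), LsERF046 (-1.25), LsERF004 (-1.64), LsERF073 (-2.54) and LsERF157 (-5.18). The salt libraries are on a scale that moves the median of all genes by more than 0.1 when it is replaced, and what part that scale has in these differences was tested only by scaling all libraries to 1000000 reads.

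Against heat at 48 h, drought was higher by 2.41 in LsERF056, 1.49 in LsERF009, 1.15 in LsERF005 and 1.49 in LsERF073. A fit of only the libraries compared lost the calls of all 5 genes against drought at 24 h and those of LsERF009 and LsERF005 against heat. With a pseudocount of 2 the calls lost were those of LsERF009 and LsERF046 against 24 h, LsERF046 and LsERF062 against salt, and LsERF009, LsERF005 and LsERF073 against heat. Libraries scaled to 1000000 reads lost LsERF046 against salt.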

How the results depend on the processing

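LsERF004, LsERF005, LsERF056 and LsERF116 were upregulated under every alternative run. With a pseudocount of 2 the counts against the control were 274 up and 155 down, with 6 AP2/ERF genes up (LsERF046, LsERF062, LsERF073 and LsAP2.05, at 0.77, lost), against drought at 5 h 258 higher and 177 lower, and against heat 889 and 482. AP2/ERF genes called down were 2 with a pseudocount of 0.1, libraries scaled to 1000000 reads, only the 6 libraries, and edgeR. Beside LsERF157, the gene was LsERF184 with only the 6 libraries and LsERF035 in the other settings of this list. Against drought at 24 h, only those libraries gave 0 and 0.

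With single libraries left out, the ranges were 335 to 539 up and 231 to 355 down for all genes, 7 to 11 up and 0 to 2 down for AP2/ERF, 53 to 321 and 4 to 19 against drought at 24 h, 377 to 557 and 223 to 281 against 5 h, 4853 to 5022 and 4387 to 4533 against salt, and 1419 to 1647 and 904 to 959 against heat. LsERF073, LsERF114, LsERF157 and LsAP2.05 lost their call in at least 1 of these. The cause was not tested.

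Among the named genes against the control, the sign turned for 3 that were not called. LsAP2.14 was -0.019 median-centred, -0.013 scaled to 1000000 reads and -0.13 to 0.11 with libraries left out, LsAP2.21 -0.16 to 0.073 and LsERF060 -0.0030 to 0.26. In differences not past the thresholds, scaling to 1000000 reads turned LsERF005 and LsERF114 against salt to 0.07 and 0.04 (from -0.41 and -0.49) and LsAP2.05 and LsERF114 against heat to -0.03 and -0.06. With a library left out, LsERF114 and LsERF157 against drought at 24 h reached -0.07 and 0.04, and against heat LsERF116, LsAP2.05, LsERF114 and LsERF157 reached -0.13, -0.17, -0.06 and 0.13.

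Libraries of the same replicate number showed little shared deviation, and whether the number marks a block is not given in the sources used here. Deviations of same-numbered control and drought libraries correlated at 0.01, 0.07 and 0.08, and with the replicate block 440 genes were up and 303 down, with 10 and 1 AP2/ERF genes. Depth limits genes of a few reads, such as LsERF057.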
